A study of Homo sapiens with 6 samples.

Results

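The matrix metalloproteinases (MMP), the ADAM and ADAMTS proteases and their tissue inhibitors (TIMP) were measured in U2OS cells after knockdown of SURF2. Members were the protein-coding genes whose symbols belong to these 4 families, 66 of 58051 gene rows in the count table: 23 MMP, 20 ADAM, 19 ADAMTS and 4 TIMP genes. U2OS is a human osteosarcoma cell line. The 2 groups were cells given an siRNA directed at SURF2 (siSURF2, 3 libraries) and cells given a scrambled siRNA (siSCR, 3 libraries). Both groups carried the same line and handling: siRNA was given 2 times, 49 h apart, and polyA RNA was taken at 96 h from cells kept in 10% serum. The series title places SURF2 in the nucleolar stress response, upstream of MDM2, and the groups were set side by side to find mRNAs that change when SURF2 is depleted.

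These enzymes share a zinc-dependent active site and are made as inactive precursors. MMPs cut collagens and other matrix proteins, ADAMs are membrane proteins that cut other membrane proteins near the cell surface and release their outer parts, and ADAMTSs are secreted enzymes that process proteoglycans and procollagens. TIMPs are small secreted proteins that block the active site. In bone and bone tumours the families are known for matrix turnover, release of growth factors and invasion. The mRNA level measured here says nothing of activation or inhibition of the proteins.

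SURF2, the siRNA target, was at 3.74, 3.56 and 3.20 CPM (TMM-normalised counts scaled to library size) in siSURF2 replicates 1, 2 and 3, against 36.2, 35.8 and 32.3 CPM in siSCR replicates 1, 2 and 3. Libraries held 17123333 to 19688089 counts in genes, so 1 CPM was 16.8 to 20 counts. Between libraries of 1 group the chi-square of the gene counts over its degrees of freedom was 2.38 to 9.19, and between the groups it was 32.1 to 39.2. siSURF2 replicate 2 stood somewhat apart from the other siSURF2 libraries (7.96 and 9.19, against 2.68 between those). Of the osteoblast and mesenchymal markers, RUNX2, COL1A1, SPARC, VIM and ALPL passed the count filter, while COL1A2, BGLAP and SP7 had at most 7 counts in a library and IBSP had 0 in all. All 6 blood cell markers were under the filter, 3 of them at 0 in all libraries. Epithelial markers summed to 1002 to 1078 CPM in siSURF2 and 1465 to 1589 CPM in siSCR, nearly all KRT8 and KRT18. Of 4 endothelial markers, PECAM1 fell (log2 fold change -1.34), VWF was not called and 2 were under the filter. The part of these differences in the results was not tested. Whether replicates were separate cultures is not in the labels, so each p-value reflects only how these libraries vary, and that variation may be technical.

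More of the MMP genes tested were higher than lower with siSURF2, 7 of 12 ADAMTS genes were lower and none was called higher, and the ADAM genes went both ways, by less than 2-fold apart from ADAM12. Of the 40 members that passed the low-count filter, 13 rose and 15 fell, while 12 stayed above the threshold of 0.05 on the adjusted p (quasi-likelihood F-test in edgeR, adjusted by Benjamini-Hochberg over 17561 genes). That is 70.0% called, where 52.0% of all genes tested and 58.5% of the protein-coding ones were called. A change of at least 2-fold was called for 12 members, 6 higher and 6 lower, or 30.0% of those tested, where the share was 8.48% over all genes tested (4.67% higher, 3.82% lower) and 7.81% over the protein-coding ones. In 27 members the groups did not overlap, and this held for 57.3% of all genes tested. The median absolute log2 fold change was 0.51 among the members tested and 0.29 among all genes tested. By family, 8 of 13 MMP genes rose and 3 fell, 3 of 12 ADAM genes rose and 4 fell, 7 of the ADAMTS genes fell, and of the 3 TIMP genes tested 2 rose and 1 fell. Over all genes, 25.8% were called higher and 26.2% lower. With library sizes set from the ERCC spike-ins, 6 members were called higher and 8 lower, where 802 genes in all were higher and 825 lower. In bulk RNA, fewer cells that make a transcript and less of it per cell cannot be told apart. MMP7, MMP10, MMP13 and ADAM28 passed the filter through the siSURF2 libraries alone, so a difference was partly built into their being tested. Without them 11 of 36 members rose and 15 fell, 4 rose and 6 fell by at least 2-fold (27.8%), and of the MMP genes 6 of 10 rose and 3 fell. The shares over all genes given above were not limited in this way to genes past the filter in both groups.

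**Figure D1:**
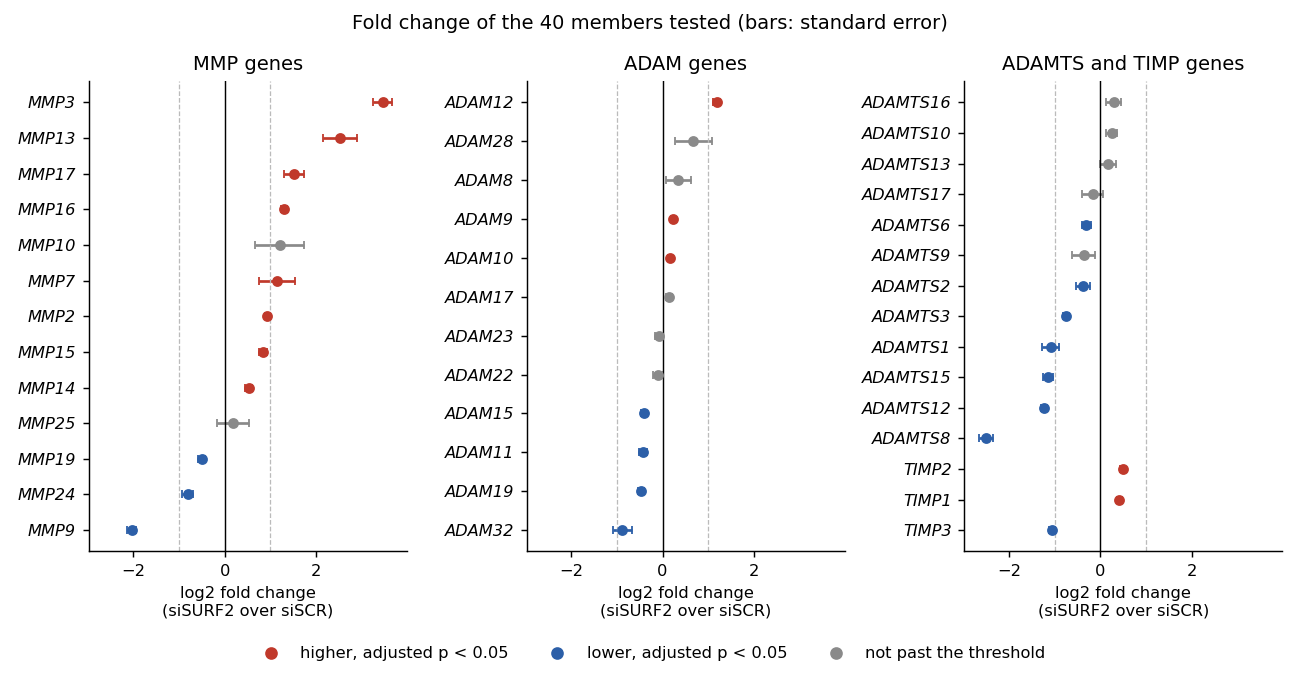
Log2 fold change (siSURF2 over siSCR, x axis) of each of the 40 members tested, in 3 panels by family, with the standard error as a bar and the call in colour. MMP3 (3.45) lies farthest to the right and ADAMTS8 (-2.50) farthest to the left, and dashed lines mark a 2-fold change.

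The other 26 members were under the filter, with 0 to 16 counts in any library. They were MMP1, MMP8, MMP11, MMP12, MMP20, MMP21, MMP23B, MMP26, MMP27 and MMP28, then ADAM2, ADAM7, ADAM18, ADAM20, ADAM21, ADAM29, ADAM30 and ADAM33, then ADAMTS4, ADAMTS5, ADAMTS7, ADAMTS14, ADAMTS18, ADAMTS19 and ADAMTS20, and TIMP4. ADAM2, ADAM30, MMP26 and MMP27 had 0 counts in all 6 libraries. A count of 0 allows up to 3 counts, or 0.150 to 0.179 CPM by library, and this limit covers counting error only. MMP1, the interstitial collagenase best known in fibroblasts, had 3, 11 and 16 counts in siSURF2 replicates 1, 2 and 3, against 1, 2 and 5 in siSCR. The groups overlapped, and MMP1, untested under the filter, was called higher when no filter was used. ADAMTS4 and ADAMTS5, the aggrecan-cutting enzymes of cartilage, had at most 3 counts in a library. TIMP4 had 4, 1 and 2 counts in siSURF2 replicates 1, 2 and 3, against 0, 3 and 1 in siSCR.

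Levels were compared between genes per unit of exon length, as TPM, which scales length-corrected counts to the same total in every library. Summed over each family, MMP genes held 338.0, 351.8 and 322.2 TPM in siSURF2 replicates 1, 2 and 3, against 213.7, 208.9 and 230.1 TPM in siSCR. TIMP genes held 669.0, 758.2 and 673.6 TPM in siSURF2, against 527.3, 517.5 and 582.0 TPM in siSCR. For these families every siSURF2 library lay above every siSCR library. ADAMTS genes held 66.1, 71.7 and 69.8 TPM in siSURF2, against 112.9, 124.1 and 131.7 TPM in siSCR, with no overlap and in the other direction. ADAM genes held 424.2, 467.0 and 422.5 TPM in siSURF2, against 399.9, 425.8 and 426.9 TPM in siSCR, and the groups overlapped. Single genes made up much of each sum. MMP2 gave 44.0% of the MMP sum in siSURF2 and 36.0% in siSCR, and ADAM9 gave 57.0% of the ADAM sum in siSURF2 and 51.2% in siSCR. ADAMTS12 gave 33.3% of the ADAMTS sum in siSURF2 and 44.1% in siSCR, and TIMP1 gave 64.0% of the TIMP sum in siSURF2 and 62.3% in siSCR.

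**Figure D2:**
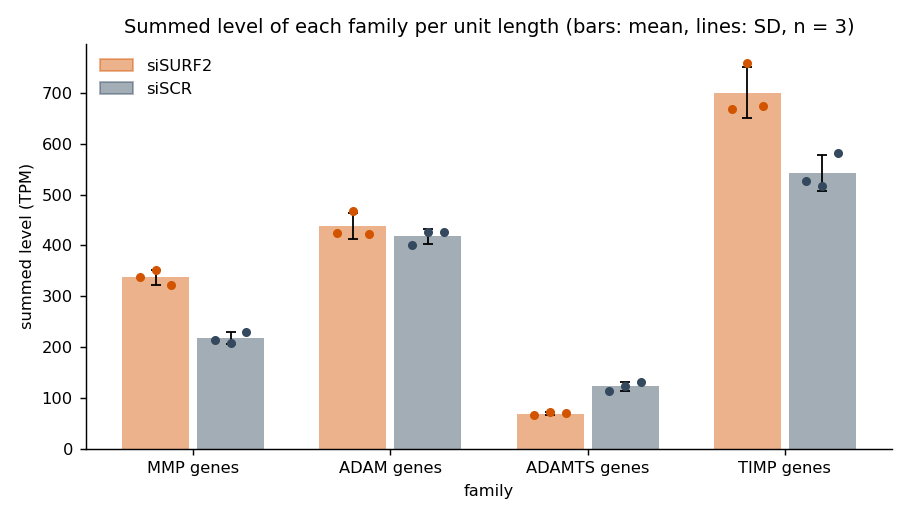
Summed level of each family (y axis, TPM) in siSURF2 and siSCR, with bars for the mean, lines for the SD over 3 libraries and points for single libraries. The ADAMTS sum averaged 69.2 TPM in siSURF2 and 122.9 TPM in siSCR, while the ADAM points of both groups overlap.

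Among the stromelysins and matrilysins, secreted MMPs that cut many non-collagen matrix proteins and activate other proMMPs, MMP3 changed most. MMP3 (stromelysin-1, ENSG00000149968, chromosome 11 at 102835801 to 102843803, GRCh38) was at 31.1, 33.7 and 37.9 CPM in siSURF2 replicates 1, 2 and 3, against 4.82, 2.83 and 1.90 CPM in siSCR. All siSURF2 libraries were far above all siSCR libraries, which varied among themselves by more than 2-fold. The log2 fold change was 3.45 ± 0.21 (SE, edgeR adjusted p = 6.9e-07), a 10.9-fold higher level, and it ran from 3.17 to 3.85 on leaving out each library. By TPM, MMP3 ranked 2nd of the MMP genes in siSURF2 (58.9 TPM, below MMP2) and 8th in siSCR (5.50 TPM). MMP7, matrilysin, had 0.990, 1.03 and 1.00 CPM in siSURF2, against 0.417, 0.267 and 0.667 CPM in siSCR. These levels rest on 18 to 20 counts per siSURF2 library and 5 to 13 per siSCR library, and the groups did not overlap. The log2 fold change of MMP7 was 1.14 ± 0.39 (edgeR adjusted p = 0.015), but without siSCR replicate 2 it was 0.88 with an adjusted p of 0.091, and DESeq2 gave an adjusted p of 0.098. With ERCC library sizes it was 1.08 (edgeR adjusted p = 0.21). MMP10, stromelysin-2, had 13 counts in each siSURF2 library and 0, 9 and 7 in siSCR replicates 1, 2 and 3. It did not pass the threshold (log2 fold change 1.21 ± 0.53, edgeR adjusted p = 0.056), and on leaving out each library the log2 fold change ran from 0.67 (without siSCR replicate 1, adjusted p = 0.27) to 1.80 (without siSCR replicate 2, adjusted p = 0.033). It was also called by limma-voom (1.90, adjusted p = 0.021) and after thinning to the smallest library (1.34, edgeR adjusted p = 0.042), and not by DESeq2 (1.25, adjusted p = 0.19). MMP7 and MMP10 passed the filter through the siSURF2 libraries alone, so a difference was partly built into their being tested.

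Of the interstitial collagenases, which cut native fibrillar collagen, MMP13 alone was above the filter. MMP13 (collagenase-3, ENSG00000137745), known in hypertrophic cartilage and osteoblasts, had 32, 27 and 39 counts in siSURF2 replicates 1, 2 and 3, against 4, 5 and 7 in siSCR. In CPM these were 1.76, 1.39 and 1.95 in siSURF2, against 0.238, 0.267 and 0.359 in siSCR. Every siSURF2 value was several times every siSCR value, at a low level in both groups. The log2 fold change was 2.52 ± 0.37 (edgeR adjusted p = 1.5e-06), and it kept its call in all settings tried. MMP13 passed the filter through the siSURF2 libraries alone, so a difference was partly built into its being tested.

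MMP3, MMP7, MMP10 and MMP13 lie in a cluster of 9 MMP genes on chromosome 11, at 102520508 to 102955734 (GRCh38, GENCODE release 29), 435.2 kb long and all on the minus strand. In chromosomal order the genes are MMP7, MMP20, MMP27, MMP8, MMP10, MMP1, MMP3, MMP12 and MMP13. The 4 members tested had positive log2 fold changes (1.14 for MMP7, 1.21 for MMP10, 3.45 for MMP3 and 2.52 for MMP13), and MMP7, MMP3 and MMP13 passed the threshold. MMP7, MMP10 and MMP13 were tested only because of their siSURF2 counts, so their shared sign is partly set by the filter, and MMP3 alone passed it in both groups. The remaining 5 had 16 counts or fewer in any library: MMP20 had 10 counts in each siSURF2 library and 8 to 15 in siSCR, and MMP12 had 3 to 5 in siSURF2 and 2 to 3 in siSCR. The 7 other protein-coding genes within 500 kb of the cluster went both ways. YAP1, a transcriptional coactivator, BIRC3, an inhibitor of apoptosis, and TMEM123 fell, with log2 fold changes of -0.83, -1.13 and -0.78. CFAP300 and DYNC2H1, cilium genes at the 2 ends, rose by 0.79 and 0.88, DCUN1D5 fell by 0.19, and BIRC2 was at 0.04 and did not pass the threshold. WTAPP1, a pseudogene transcribed on the opposite strand across MMP1 and the edge of MMP3, fell (log2 fold change -0.89, edgeR adjusted p = 8.2e-04) and shares 150 exon bases with MMP1 and 32 with MMP3. Whether the counting used strand is not stated in the labels, so reads of such shared stretches cannot be assigned with certainty.

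**Figure D3:**
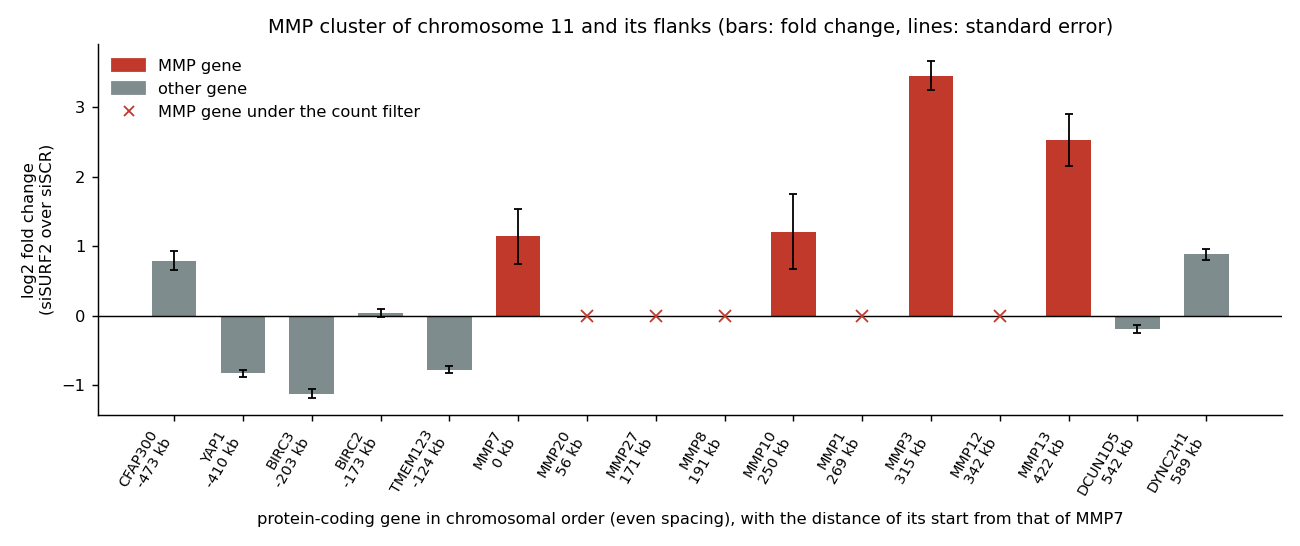
Log2 fold change (y axis, siSURF2 over siSCR, with the standard error) of the protein-coding genes of the chromosome 11 MMP cluster and of 500 kb on each side, in chromosomal order. The 4 MMP genes tested stand above 0, 3 of them (MMP7, MMP10, MMP13) past the filter through siSURF2 alone, crosses mark the 5 under the count filter, and flanking genes lie on both sides of 0.

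Promoter sequences (RefSeq, GRCh38.p14, 250 bases before to 50 after the start) were at hand for 39 of the 66 members, among them 5 of the cluster, though not for MMP3 or MMP13. They were searched on both strands for TGANTCA, a palindromic pattern that takes in the usual AP-1 sites TGAGTCA and TGACTCA and the looser TGAATCA, and for the TATA box pattern TATAAA. The first pattern was in 3 of the 5 cluster promoters, 4 of 39 member promoters (10.3%) and 7.76% of all 27305 promoters in the table. The second was in 4 of the 5 cluster promoters, 8 of 39 member promoters (20.5%) and 12.0% of all. GGGCGG, the GC box, was in none of those 5 cluster promoters, 66.7% of member promoters and 44.6% of all promoters. Among the 10954 promoters of protein-coding genes tested, the shares were 4.79% for TGANTCA, 5.65% for TATAAA and 69.4% for GGGCGG. In cluster genes under the filter the distances differed. In MMP20, TGANTCA began 112 bases and TATAAA 72 bases before the start, and in MMP8, TATAAA began 110 bases before it. The matches of the 2 cluster genes above the filter with a promoter at hand are shown because they lie at nearly the same distances from the start. The pattern is in capitals, and each match is read 5′ to 3′ along the minus strand of chromosome 11.
MMP7 with TGANTCA, first base 67 bases before the start (chr11:102530797-102530825): aaacactcaaaTGAGTCAcctatttccac
MMP10 with TGANTCA, first base 67 bases before the start (chr11:102780678-102780706): aaacacatgcaTGAATCAtactgttggtg
MMP7 with TATAAA, first base 30 bases before the start (chr11:102530761-102530788): ctgagaagctaTATAAAtttctgcagtc
MMP10 with TATAAA, first base 31 bases before the start (chr11:102780643-102780670): cattgtctctgTATAAAagaaaggccac
ADAMTS12, which fell, also held TGANTCA, with its first base 84 bases before the start (minus strand, chr5:33892057-33892085): acactgtcagcTGAATCActcccctttta
The pattern thus stood in promoters of a member that rose, one that fell and one that did not pass the threshold. A match is a description of letters and not a binding site.

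The gelatinases, which cut denatured collagen and basement membrane collagen, moved in opposite directions. MMP2 (gelatinase A, ENSG00000087245, chromosome 16 at 55389700 to 55506691) was at 222.1, 210.9 and 190.5 CPM in siSURF2 replicates 1, 2 and 3, against 106.8, 106.1 and 113.2 CPM in siSCR. MMP9 (gelatinase B, ENSG00000100985, chromosome 20 at 46008908 to 46016561) was at 5.22, 6.14 and 6.40 CPM in siSURF2, against 23.4, 24.0 and 25.6 CPM in siSCR. Neither gene had overlapping groups. The log2 fold change was 0.93 ± 0.06 for MMP2 (edgeR adjusted p = 5.4e-14) and -2.04 ± 0.10 for MMP9 (edgeR adjusted p = 1.2e-15). Per unit length, the level of MMP2 was 20.1, 16.3 and 14.1 times that of MMP9 in siSURF2, against 2.16, 2.09 and 2.09 times in siSCR. MMP9 shares 430 exon bases, 18.4% of its exon length, with the opposite-strand RNA SLC12A5-AS1, which fell as well (35 to 40 counts in siSURF2, 68 to 78 in siSCR, log2 fold change -1.08). Macrophages and neutrophils are rich sources of MMP9 in tissue. Of 5 markers of those cells, MPO had at most 1 count and ELANE at most 4 in a library, and the 5 together held 7.25 to 7.97 CPM in siSURF2 and 7.74 to 9.04 CPM in siSCR, mostly from ITGAM.

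The membrane-anchored MMPs act at the cell surface. Of the 6 tested, 4 rose and 1 fell, where 25.8% of all genes tested were called higher and 26.2% lower. MMP14 (MT1-MMP, ENSG00000157227), the collagenase that activates proMMP2 on the cell surface in a complex with TIMP2, was at 55.0, 50.7 and 51.0 CPM in siSURF2 replicates 1, 2 and 3, against 36.8, 31.9 and 40.2 CPM in siSCR. The groups did not overlap, and the log2 fold change was 0.52 ± 0.07 (edgeR adjusted p = 6.1e-07). MMP16 (MT3-MMP, ENSG00000156103), a close relative with similar substrates, was at 77.8, 76.1 and 72.4 CPM in siSURF2, against 29.9, 27.6 and 34.8 CPM in siSCR. The siSURF2 values were close together and well above those of siSCR, with a log2 fold change of 1.29 ± 0.07 (edgeR adjusted p = 7.1e-15). MMP17 (MT4-MMP), held in the membrane by a glycolipid anchor, was at 5.22, 3.77 and 5.30 CPM in siSURF2, against 2.02, 1.98 and 1.03 CPM in siSCR. Its log2 fold change was 1.52 ± 0.22 (edgeR adjusted p = 1.8e-06), without overlap between groups. MMP15 (MT2-MMP) rose by a log2 fold change of 0.84 ± 0.09, to 21.8 ± 1.65 CPM in siSURF2, against 12.2 ± 0.286 CPM in siSCR (SD, n = 3 each). MMP24 (MT5-MMP), best known in neurons, fell by 0.81 ± 0.12 on the log2 scale, to 14.2 ± 3.23 CPM in siSURF2, against 24.9 ± 1.90 CPM in siSCR, and shares 18.1% of its exon length with the opposite-strand MMP24OS (log2 fold change -0.08, not called). MMP25, a leukocyte MT-MMP, was at 0.951 ± 0.236 CPM in siSURF2 and 0.848 ± 0.245 CPM in siSCR (log2 fold change 0.18 ± 0.35). Of its exon length, 35.2% is shared with the opposite-strand MMP25-AS1, which fell (log2 fold change -0.61). MMP25-AS1 had 86 to 120 counts in siSURF2 and 131 to 159 in siSCR, so the low MMP25 level may hold reads of the shared stretch. With ERCC library sizes MMP16, MMP17 and MMP24 passed the threshold, while MMP14 (log2 fold change 0.46, edgeR adjusted p = 0.35) and MMP15 (0.79, adjusted p = 0.058) did not. Of the remaining secreted MMPs, MMP19, an enzyme of basement membrane components, fell by 0.50 ± 0.08 on the log2 scale, to 21.4 ± 0.506 CPM in siSURF2, against 30.2 ± 3.41 CPM in siSCR. TMEM198B, which overlaps 17.4% of the MMP19 exon length on the other strand, rose by 0.50.

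**Figure D4:**
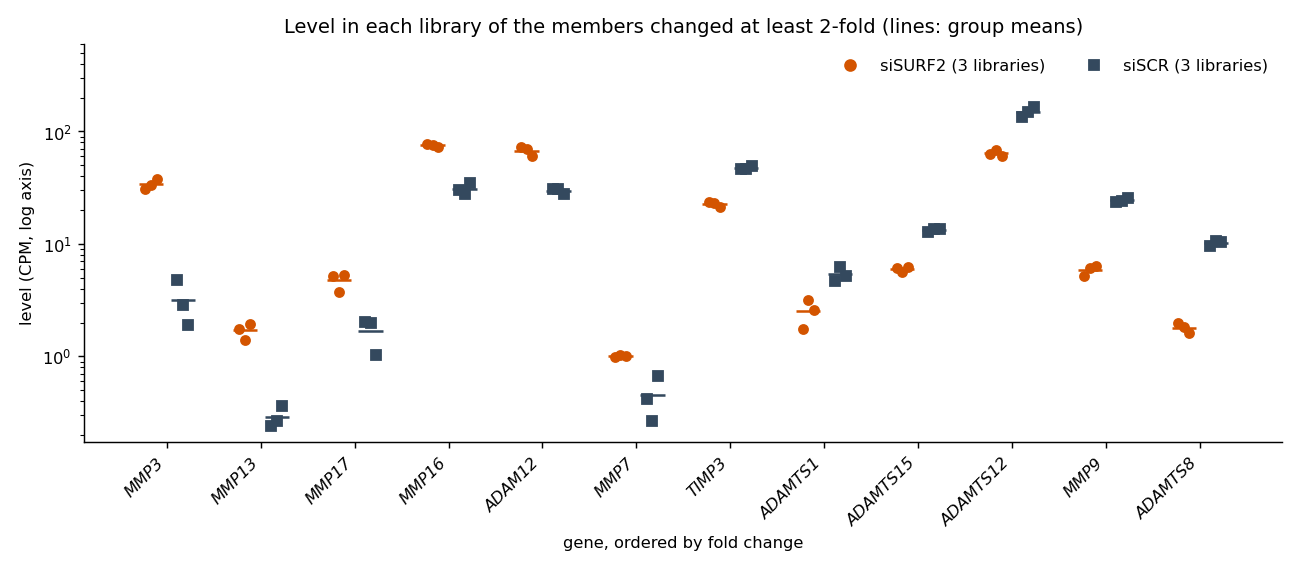
Level (y axis, CPM on a log axis) in each library of the 12 members called with at least a 2-fold change, siSURF2 as circles and siSCR as squares, with lines at the group means. In all 12 the 3 siSURF2 points lie on 1 side of the 3 siSCR points, as for 57.3% of all genes tested. The 12 were picked by fold change and adjusted p from these same libraries, so their separation was largely set by that choice. MMP7 and MMP13 passed the filter through the siSURF2 libraries alone. MMP3 was at 31.1 to 37.9 CPM in siSURF2, against 1.90 to 4.82 CPM in siSCR.

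Among ADAMs with a working active site, ADAM12 changed most. ADAM12 (meltrin alpha, ENSG00000148848, chromosome 10 at 126012381 to 126388455), known for cell fusion in muscle and for cleavage of growth factor precursors and binding proteins, was at 72.8, 69.3 and 61.1 CPM in siSURF2 replicates 1, 2 and 3, against 30.8, 30.8 and 27.9 CPM in siSCR. All siSURF2 libraries lay well above all siSCR libraries, and the log2 fold change was 1.18 ± 0.07 (edgeR adjusted p = 3.6e-14). ADAM10, the main sheddase of Notch receptors and cadherins, was at 148.4, 154.9 and 155.4 CPM in siSURF2, against 130.8, 133.7 and 145.3 CPM in siSCR. That small rise passed the threshold (log2 fold change 0.16 ± 0.05, edgeR adjusted p = 0.010), but not without siSCR replicate 1 (0.12, adjusted p = 0.074). ADAM17, the sheddase of tumour necrosis factor and of several EGF receptor ligands, was at 73.0, 74.3 and 78.0 CPM in siSURF2, against 61.2, 69.9 and 74.0 CPM in siSCR. Its groups overlapped and it did not pass the threshold (log2 fold change 0.13 ± 0.06, edgeR adjusted p = 0.074), while without siSCR replicate 3 it did (0.19, adjusted p = 0.013). It also passed with upper-quartile scaling, no scaling factors, no filter and a replicate block (edgeR adjusted p = 0.018, 0.037, 0.041 and 0.042). In the other settings ADAM17 was not called, with an edgeR adjusted p of up to 0.51 on leaving out a library, and over all settings the adjusted p reached 0.92. Its exons overlap those of IAH1 on the other strand by 1323 bases.

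ADAM9, the most abundant ADAM by TPM in both groups (249.8 TPM in siSURF2, 213.9 TPM in siSCR), rose by a log2 fold change of 0.23 ± 0.05, to 489.3 ± 15.8 CPM in siSURF2, against 416.4 ± 16.2 CPM in siSCR (SD, n = 3 each). ADAM19 (meltrin beta), a sheddase of neuregulin, and ADAM15 (metargidin), which binds integrins, fell. ADAM19 was at 106.9 ± 7.37 CPM in siSURF2 and 147.9 ± 9.49 CPM in siSCR (log2 fold change -0.47 ± 0.06), and ADAM15 at 61.5 ± 0.545 CPM in siSURF2 and 81.9 ± 6.02 CPM in siSCR (-0.41 ± 0.06). ADAM8 and ADAM28, known in leukocytes, were below 3 CPM and had log2 fold changes of 0.35 ± 0.27 and 0.68 ± 0.40, neither past the threshold. Of the ADAMs that lack a working active site and serve as adhesion proteins, ADAM11 fell by 0.42 ± 0.09 and ADAM32 by 0.88 ± 0.21 on the log2 scale. ADAM22 and ADAM23, neuronal receptors of the LGI proteins, were at -0.10 ± 0.11 and -0.08 ± 0.09 and did not pass the threshold. With ERCC library sizes ADAM12 was the ADAM gene called.

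The proteoglycanase ADAMTSs cut aggrecan, versican and related proteoglycans. Of the 4 tested, 3 fell by more than 2-fold, where 3.82% of all genes tested were called lower by at least 2-fold. ADAMTS8 (ENSG00000134917, chromosome 11 at 130404925 to 130428993) was at 1.98, 1.81 and 1.60 CPM in siSURF2 replicates 1, 2 and 3, against 9.52, 10.5 and 10.4 CPM in siSCR. No siSURF2 library came near the siSCR level, and the log2 fold change was -2.50 ± 0.16 (edgeR adjusted p = 1.6e-13). ADAMTS15, its neighbour on chromosome 11 (130448974 to 130476641), was at 6.16, 5.63 and 6.25 CPM in siSURF2, against 12.7, 13.5 and 13.6 CPM in siSCR (log2 fold change -1.14 ± 0.11, edgeR adjusted p = 1.6e-09). ADAMTS1, which also restrains blood vessel growth, was at 1.76, 3.20 and 2.60 CPM in siSURF2, against 4.70, 6.26 and 5.19 CPM in siSCR. All its siSURF2 values were under the lowest siSCR value, and the log2 fold change was -1.09 ± 0.19 (edgeR adjusted p = 2.4e-05). On leaving out each library the log2 fold change of ADAMTS1 ran from -1.30 to -0.88, so it did not always reach 2-fold. ADAMTS9 was at 1.53 ± 0.177 CPM in siSURF2 and 1.97 ± 0.291 CPM in siSCR and did not pass the threshold (-0.36 ± 0.25).

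ADAMTS12 (ENSG00000151388, chromosome 5 at 33523535 to 33892192), an enzyme of cartilage oligomeric matrix protein, was the ADAMTS with the highest level in both groups by TPM (23.0 TPM in siSURF2, 54.2 TPM in siSCR). It was at 63.0, 67.8 and 60.6 CPM in siSURF2 replicates 1, 2 and 3, against 133.3, 150.4 and 164.0 CPM in siSCR. The siSURF2 libraries lay near 1 level while siSCR spread more, and the log2 fold change was -1.23 ± 0.07 (edgeR adjusted p = 6.0e-14). Of the procollagen N-proteinases, which trim the amino end of fibrillar procollagens, ADAMTS3 was at 27.8 ± 1.82 CPM in siSURF2 and 46.6 ± 2.24 CPM in siSCR (-0.75 ± 0.07). ADAMTS2 was at 4.68 ± 0.899 CPM in siSURF2 and 6.05 ± 0.504 CPM in siSCR with overlapping groups (-0.38 ± 0.16, edgeR adjusted p = 0.044). That call did not hold with DESeq2 (adjusted p = 0.16) or without siSURF2 replicate 2, siSURF2 replicate 3, siSCR replicate 2 or siSCR replicate 3, where the edgeR adjusted p was 0.15, 0.15, 0.13 and 0.12, and over all settings it reached 0.51. ADAMTS6, linked to fibrillin, was called lower (-0.31 ± 0.10, edgeR adjusted p = 0.012) but not without siSURF2 replicate 1 (-0.19, 0.15) or siSCR replicate 2 (-0.24, 0.093). None of ADAMTS10, ADAMTS13, ADAMTS16 and ADAMTS17 passed, at 0.25, 0.17, 0.29 and -0.17 on the log2 scale. ADAMTS13, the protease of von Willebrand factor, was at 3.87 ± 0.551 CPM in siSURF2 and 3.46 ± 0.0341 CPM in siSCR. No ADAMTS gene was called higher by DESeq2, limma-voom or edgeR with the filter and all 6 libraries, while 1, ADAMTS10, had an unadjusted edgeR p under 0.05. ADAMTS10 passed without siSURF2 replicate 2 (log2 fold change 0.41, edgeR adjusted p = 0.0023) and with no filter (0.27, edgeR adjusted p = 0.031).

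Of the inhibitors, TIMP1 and TIMP2 rose and TIMP3 fell. TIMP1 (ENSG00000102265, chromosome X at 47582313 to 47586789), a broad inhibitor of soluble MMPs, was at 188.1, 203.6 and 195.6 CPM in siSURF2 replicates 1, 2 and 3, against 142.0, 143.9 and 153.6 CPM in siSCR. TIMP2 (ENSG00000035862, chromosome 17 at 78852977 to 78925387), which at the cell surface also presents proMMP2 to MMP14, was at 379.2, 392.5 and 350.1 CPM in siSURF2, against 272.6, 242.8 and 283.2 CPM in siSCR. Both genes had all siSURF2 libraries above all siSCR libraries, with log2 fold changes of 0.42 ± 0.05 (edgeR adjusted p = 7.5e-08) and 0.49 ± 0.06 (3.1e-08). With ERCC library sizes the log2 fold changes were 0.36 and 0.43 and neither was called (edgeR adjusted p = 0.49 and 0.38). TIMP3 (ENSG00000100234, chromosome 22 at 32801701 to 32863043), which binds to the matrix and inhibits ADAM17 and aggrecanases besides MMPs, was at 23.6, 23.0 and 21.4 CPM in siSURF2, against 46.1, 46.8 and 49.1 CPM in siSCR. The siSURF2 values were close together and far below the siSCR values, and the log2 fold change was -1.07 ± 0.07 (edgeR adjusted p = 2.1e-13). Per unit length, TIMP1 stood at 23.8, 26.5 and 27.3 times TIMP3 in siSURF2, against 9.20, 9.18 and 9.34 times in siSCR. The ratio of MMP14 to TIMP2 was 0.177 ± 0.0117 in siSURF2 and 0.172 ± 0.00680 in siSCR, so the difference was smaller than the spread, while that of MMP2 to TIMP2 was 0.635 ± 0.0300 in siSURF2 and 0.468 ± 0.0274 in siSCR (SD, n = 3 each). MMP3 stood at 0.124, 0.124 and 0.146 of the TIMP1 level in siSURF2, against 0.0255, 0.0148 and 0.00931 in siSCR.

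Other genes of proteolysis at the cell surface were read from 7 lists with 85 genes in all, of which 69 were tested, 27 rose and 25 fell. That is 75.4% called, where 52.0% of all genes tested and 58.5% of the protein-coding ones were called. The median log2 fold change was 0.01 in the lists and 0.00 over all genes tested. Beside the counts of each list below, 25.8% of all genes tested were called higher and 26.2% lower. Of 10 tested genes of the plasminogen system, which makes plasmin to activate proMMPs, 3 rose and 5 fell. ANXA2, a plasminogen receptor subunit, and PLAT, tissue plasminogen activator, fell by 0.67 ± 0.05 and 0.53 ± 0.06 on the log2 scale (± SE). PLAUR, the urokinase receptor, S100A10, the partner of ANXA2, and LRP1, a clearance receptor for proteases and their inhibitors, rose by 0.48 ± 0.07, 0.47 ± 0.07 and 0.44 ± 0.06. Of 11 tested inhibitors and cofactors, 3 rose and 4 fell. CST3 (cystatin C), SERPINH1, a collagen chaperone, and SPOCK1, a testican, rose by 0.71 ± 0.06, 0.69 ± 0.05 and 0.54 ± 0.08. TFPI2, a serine protease inhibitor of the matrix, fell by 1.23 ± 0.10, and PCOLCE and PCOLCE2, enhancers of procollagen C-proteinase, fell by 0.37 ± 0.08 and 0.48 ± 0.07.

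Of 12 tested genes for maturation of ADAMs and proMMPs, 6 rose and 3 fell. RHBDF2 (iRhom2), which carries ADAM17 to the cell surface, rose to 62.0 ± 4.79 CPM in siSURF2, against 31.6 ± 1.44 CPM in siSCR (log2 fold change 0.97 ± 0.07, SD over n = 3 each). The proprotein convertases FURIN, which removes the prodomain of ADAMs and of MT-MMPs, and PCSK7 rose by 0.63 ± 0.06 and 0.73 ± 0.07. TSPAN14 and TSPAN5, tetraspanins that escort ADAM10, fell by 0.71 ± 0.06 and 0.59 ± 0.08. TSPAN33 also fell (-0.28 ± 0.11), though not without siSURF2 replicate 1, siSURF2 replicate 3 or siSCR replicate 3 (edgeR adjusted p = 0.11, 0.10 and 0.20). Of the astacins, BMP1, the procollagen C-proteinase, rose by 0.27 ± 0.07, and TLL2 fell by 0.60 ± 0.18, with an adjusted p of 0.054 without siSURF2 replicate 2. Of 7 ADAMTS-like proteins, which resemble ADAMTSs without the protease domain, 2 rose and 3 fell: PAPLN and ADAMTSL3 by 0.66 ± 0.08 and 0.61 ± 0.12, and ADAMTSL1, ADAMTSL5 and ADAMTSL4 with log2 fold changes of -2.09 ± 0.22, -0.74 ± 0.10 and -0.49 ± 0.10.

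Of 25 tested surface proteins known to be shed by ADAM10 or ADAM17, 11 rose and 8 fell. EREG and HBEGF, both ligands of the EGF receptor, moved in opposite directions. EREG was at 12.1 ± 2.42 CPM in siSURF2 and 1.38 ± 0.190 CPM in siSCR (log2 fold change 3.13 ± 0.18), and HBEGF at 5.77 ± 0.967 CPM in siSURF2 and 20.9 ± 2.53 CPM in siSCR (-1.86 ± 0.12, SD over n = 3 each). MET, the receptor of hepatocyte growth factor, and TNFRSF1A, a receptor of tumour necrosis factor, rose by 0.67 ± 0.05 and 0.54 ± 0.05. CDH1, E-cadherin, and SDC4, a heparan sulfate proteoglycan, fell by 2.70 ± 0.31 and 0.54 ± 0.05, CDH1 at low levels of 0.484 CPM in siSURF2 and 3.19 CPM in siSCR. Of the other epithelial markers measured, KRT8 and KRT18 fell too (log2 fold changes -0.50 and -0.69), EPCAM rose (0.99) and KRT19 was under the filter. Of the listed substrates of the proteoglycanase ADAMTSs as a group, ACAN had 1.48 CPM in siSURF2 and 1.42 CPM in siSCR and VCAN was under the filter. BCAN and NCAN were called higher (0.29 ± 0.11) and lower (-0.97 ± 0.40), with adjusted p of 0.037 and 0.040. BCAN was not called without siSURF2 replicates 1 or 3 or siSCR replicates 1 or 3 (adjusted p 0.069 to 0.17), nor NCAN without any of 5 of the 6 libraries (0.072 to 0.14).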

How the data were processed

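PolyA RNA of 6 U2OS libraries was analysed, 3 siSURF2 and 3 siSCR. The values are raw counts of reads for each gene, deposited as 1 table with no normalization. Per the submitters' processing notes, reads were handled with fastp 0.23.1 and STAR 2.5.2b on GRCh38, while for the counting tool, its annotation and its strand setting the sources used here give nothing. Columns were matched to samples by name. The 92 ERCC rows (1.12% to 1.72% of counts) stayed out of library sizes and tests. Symbols came from a gene name table (56948 rows) and GENCODE release 29 (499 rows), with 604 rows unnamed, and gene types, coordinates and exon lengths from GENCODE release 29.

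Genes were filtered with filterByExpr (minimum count 10, minimum total 15), TMM-normalised and tested with edgeR 4.0.16 in R 4.3.3 (robust quasi-likelihood F-test, group as the only term, Benjamini-Hochberg over 17561 genes, threshold 0.05). The common biological coefficient of variation was 5.12%. Fold changes are siSURF2 over siSCR, and standard errors are the log2 fold change without prior count over the square root of F. The program was tested on simulated data. DESeq2 1.42.0, limma-voom (limma 3.58.1), other scalings, filters, a replicate block, thinning and leaving out each library were the alternatives. TPM values divide counts by exon length.

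Members and lists were chosen with earlier results of these data known, so counts over them are descriptions. Every tested member is named; values per library are given for members changed at least 2-fold, all TIMPs tested, MMP2, MMP14, ADAM10, ADAM17 and ADAMTS1, and MMP10, MMP1 and TIMP4 were added after their values were seen. Of each list, up to 3 genes per direction with the smallest adjusted p are named, except for a gene that is not reported here; the flanking genes, overlap partners and other markers were named after their values were seen.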

Additional observations from a re-analysis of the deposited data

How the results depend on the processing

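Over 17 alternative settings, 637 of 676 values of single members kept their direction and side of the threshold, 28 lost the call, 10 gained one and 1 changed sign: MMP25, not called in any setting, had a log2 fold change of -0.0063 without siSURF2 replicate 2, and -0.0063 to 0.42 on leaving out each library. For 22 of the 40 members tested, nothing changed in any setting. Library sizes from ERCC totals, which vary from 1.12% to 1.72% of counts within groups, cut the calls most: 802 genes higher and 825 lower (4532 and 4593 with TMM), 6 members higher and 8 lower (13 and 15), 5 MMP genes higher, 1 ADAM gene higher and 0 lower, 0 TIMP genes higher, and 4 genes of the other lists higher and 7 lower (27 and 25). With no filter ADAMTS10 was called, giving 1 ADAMTS gene higher. The cause of these shifts was not tested. Without length correction, the log2 ratio of the summed membrane-anchored MMPs was 0.67, against 0.47 per length. Leaving out each library gave 4082 to 4292 genes higher and 3878 to 4574 lower, 12 to 15 members higher and 13 to 15 lower, 8 to 9 MMP, 2 to 4 ADAM and 0 to 1 ADAMTS genes higher, and 5 to 7 ADAMTS genes lower. Deviations of same-numbered libraries from their group means had a Pearson r of 0.004, -0.092 and -0.039 across genes. For libraries of unlike number r ran from -0.075 to 0.118. With 3 libraries per group such a check cannot decide whether the numbers pair the samples, and the labels do not say. With a replicate block 4478 genes were higher and 4550 lower, and 14 members were called in each direction. Levels of 1 CPM or less rest on 20 counts or fewer, which limits MMP7, MMP10, MMP13 (4 to 7 counts in siSCR libraries), MMP25 and ADAM28.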
